A study of Mus musculus with 14 samples.

Results

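The insulin-like growth factor (IGF) system was examined in tumours of Hif2alpha-deficient and control mice. It was taken as 10 genes, chosen by name: the ligand genes Igf1 and Igf2, the receptor genes Igf1r and Igf2r, and the binding protein genes Igfbp2 to Igfbp7. All 10 were present among the 12393 genes that have a probeset of their own on the Affymetrix mouse array, with 23 of its 20380 single-gene probesets. A probeset is a group of short probes that reads 1 transcript, usually near its 3' end, and its level is given here on a log2 scale, so that a difference of 1 is a doubling. Members were chosen with earlier results of the comparison between the groups known, in which Igfbp2, Igfbp5 and Igfbp6 had been seen to lie lower in deficient tumours. Their differences between the groups are therefore a description and support nothing by themselves.

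There were 7 arrays from tumours labelled Hif2alpha deficient, which the titles call a knockdown, and 7 arrays from tumours of control mice. Hif2alpha, the product of Epas1, is a transcription factor that accumulates when oxygen is low. All mice had a mixed 129 SvJ/C57Bl6 background. The study is known for lung tumours, but the labels give neither the organ, the age of the mice nor how and in which cells Hif2alpha was lost.

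IGF1 and IGF2 are secreted growth factors that act through the receptor tyrosine kinase IGF1R and promote growth and survival. IGF2R, which is also the receptor for mannose 6-phosphate tags on lysosomal enzymes, takes up IGF2 and leads it to degradation. Most circulating and tissue IGF is held by binding proteins, which carry the ligands, keep them from the receptor or deliver them when cleaved. In the mouse lung Igfbp2 is known as a marker of mature alveolar type I cells, the flat cells of gas exchange.

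The upstream sequences of 3 binding protein genes are printed first, because the groups differ in a HIF subunit. These 3 were picked for their fitted differences, which ran in both directions, so their matches are set beside those of the other members. HIF dimers bind DNA at the core letters ACGTG or GCGTG. Each stretch holds 250 bases before and 50 bases after a RefSeq start in build GRCm38.p6, read 5' to 3' along the gene, and capitals mark these letters on either strand.
Igfbp2 (chr1:72824230-72824529, plus strand): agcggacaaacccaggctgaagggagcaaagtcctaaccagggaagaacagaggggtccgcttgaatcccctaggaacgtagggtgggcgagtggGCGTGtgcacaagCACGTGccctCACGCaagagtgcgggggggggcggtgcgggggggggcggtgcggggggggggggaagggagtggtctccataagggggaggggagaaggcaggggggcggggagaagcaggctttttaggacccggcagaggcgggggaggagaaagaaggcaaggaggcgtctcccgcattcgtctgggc
Igfbp3 (chr11:7213874-7214173, minus strand): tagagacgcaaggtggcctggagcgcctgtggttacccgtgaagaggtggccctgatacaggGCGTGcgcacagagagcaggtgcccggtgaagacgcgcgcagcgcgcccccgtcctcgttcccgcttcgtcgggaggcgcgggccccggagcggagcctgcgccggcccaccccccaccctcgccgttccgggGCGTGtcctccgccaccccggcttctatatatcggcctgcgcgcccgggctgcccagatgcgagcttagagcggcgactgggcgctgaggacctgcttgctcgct
Igfbp5 (chr1:72874816-72875115, minus strand): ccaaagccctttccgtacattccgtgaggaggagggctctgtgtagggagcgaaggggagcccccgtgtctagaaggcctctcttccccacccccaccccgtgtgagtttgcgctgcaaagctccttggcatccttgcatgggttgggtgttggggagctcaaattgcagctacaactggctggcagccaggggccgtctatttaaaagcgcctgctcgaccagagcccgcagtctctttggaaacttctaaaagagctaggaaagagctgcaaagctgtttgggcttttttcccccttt
RefSeq lists 2 starts for Igfbp2. The stretch printed, of the first, held 4 matches, beginning at -155, -142, -141 and -132 from the start, and that of the second held 1, at -3. Those at -142 and -141 overlap as the forward and reverse reading of 1 palindrome. The Igfbp3 stretch held 2 matches, at -188 and -55, and the Igfbp5 stretch held 0. The most matches, 6, were in the stretch of Igf2r, a gene whose level differed little between the groups. Of these, the matches at -48 and -47 overlap as 1 palindrome, and so do those at -7 and -6. There were 3 in that of Igf1r, 2 in that of Igfbp7, 1 in that of Igf1, 1 in 1 of the 4 stretches of Igf2, and 0 in those of Igfbp4 and Igfbp6. RefSeq lists 14 such stretches for the 10 genes, and 8 held at least 1 match, beside 43.8% of the 32851 stretches of 300 bases of all genes. A match describes the letters only and was not a measure of binding.

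Arrays were compared within the whole table. Epas1 itself had a level of 4.88 to 6.38 in deficient tumours and 4.65 to 6.5 in controls, a difference of -0.19 (SE 0.30). How Hif2alpha was lost is not given, nor whether the probeset would read that loss. Whether this level bears on the labels was therefore not tested. The lung epithelial marker Sftpc, a surfactant protein gene, read 13.89 ± 0.15 in deficient tumours and 13.85 ± 0.06 in controls (SD, n = 7 each). Arrays correlated across probesets at r = 0.946 to 0.990 within the deficient group and 0.973 to 0.996 within controls. The descriptions of the arrays carry leading numbers of unstated meaning, 4 among deficient arrays and 2 among controls. Deviations from the group mean correlated at r = 0.112 on average between arrays of the same number and at -0.282 between other arrays of a group. Deficient arrays 3 and 6 share 1 such number. Where arrays of a number share a litter or another source, there are under 14 independent samples, and the p-values measure only the spread between these arrays. The 3' minus 5' signal of 4 control genes, a measure of RNA quality, was 2.53 to 3.08 in deficient arrays and 2.52 to 3.52 in controls.

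Of the 23 probesets 15 passed the filter on low values, a level above 4 in at least 7 of the 14 arrays, and these belonged to 8 genes. Igf2 and Igf1r had no probeset that passed. In the limma fit over all 12701 probesets that passed, 0 of the 15 had an adjusted p under 0.05, beside 0.0394% of all tested probesets. Their adjusted p ran from 0.16 to 0.992. At an unadjusted p under 0.05 there were 3, 1 of Igfbp2 and 2 of Igfbp4, all lower in deficient tumours, beside 6.57% of all tested probesets called lower at that threshold. Since the members were chosen with this comparison known, nothing is read from these shares. In 9 probesets the fitted difference was below 0 and in 6 above, with a median of -0.09 beside 0.02 over all tested probesets. That median was -0.33 without deficient 7 and -0.001 without deficient 1. The groups did not separate fully in any of the 15 (0, beside 0.496% of all tested probesets).

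**Figure D1:**
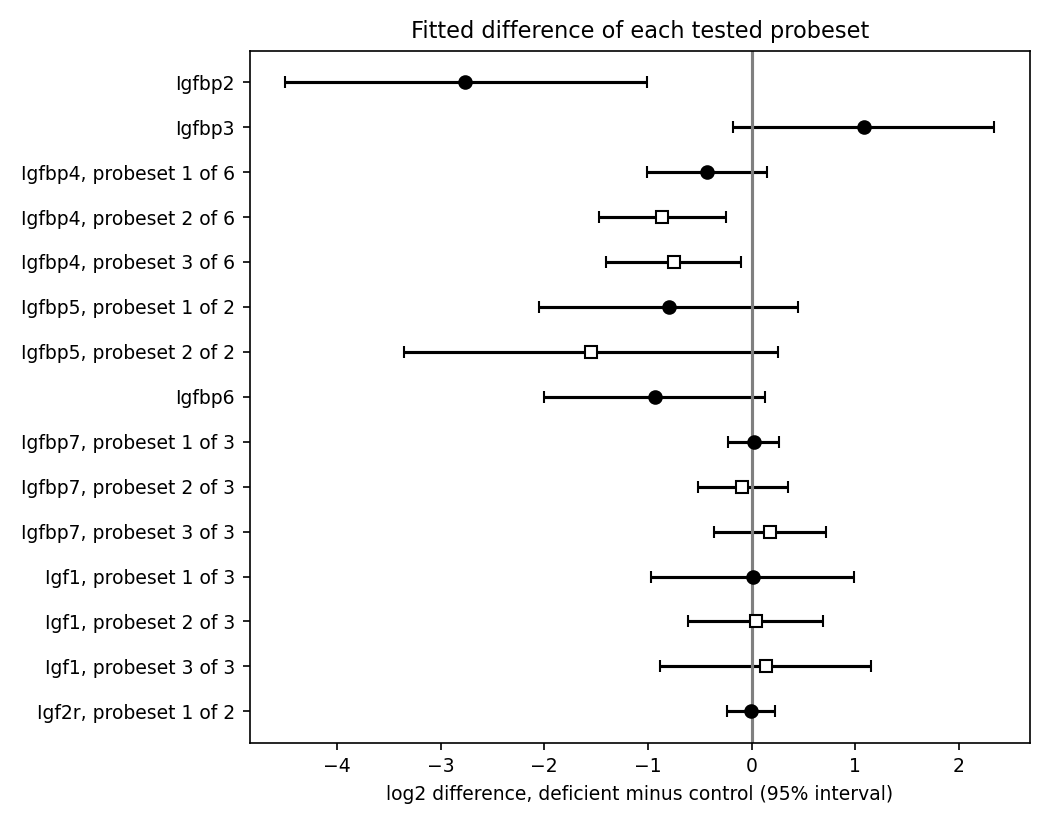
Fitted log2 difference of each of the 15 tested probesets, deficient minus control, with its 95% interval; filled circles are the probeset with the highest mean of each gene and open squares the others. Igfbp2 lies at -2.76, Igfbp3 at 1.08, and Igfbp7, Igf1 and Igf2r lie near 0.

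Among the ligands, Igf1 differed little between the groups and Igf2 was near background. The brightest of 3 Igf1 probesets had a level of 7.13 at the lowest, 8.16 at the median and 10.36 at the highest in deficient tumours, against 7.27, 8.05 and 9.91 in controls. The ranges overlapped almost wholly, and 1 array of each group, deficient 7 and control 1, stood above the rest. The difference was 0.01 (SE 0.46, 95% interval -0.97 to 0.99), and those of the other probesets were 0.04 (SE 0.30) and 0.14 (SE 0.47). The interval includes close to a doubling in either direction. Without deficient 7 the difference was -0.33, and without control 1 it was 0.28.

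The brighter Igf2 probeset had a level of 2.17 to 3.38 in deficient tumours, with a median of 2.23, against 2.44 to 5.32 in controls, with a median of 3.58. Deficient arrays 1 to 6 lay below every control array. Only control 6 exceeded 4, the level of the filter, so the probeset was not tested. Several of its values lay close to the floor of the background correction, so no fold is given. The other Igf2 probeset stayed at 2.15 to 2.16 on all arrays.

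For the receptors, neither Igf1r probeset rose above background on any array. They read 2.17 to 2.52 and 2.15 in deficient tumours, and 2.18 to 2.28 and 2.15 in controls, so the arrays give no measure of Igf1r. The insulin receptor gene Insr, whose product can pair with IGF1R, was likewise under 4 on all arrays in every probeset. Igf2r was well measured by its brighter probeset, at 8.15 at the lowest, 8.23 at the median and 8.64 at the highest in deficient tumours, against 8.03, 8.33 and 8.54 in controls. Its difference was -0.01 (SE 0.11), with a 95% interval of -0.24 to 0.23, the groups overlapping over nearly their whole ranges. The dimmer Igf2r probeset read 2.83 to 5.21 in deficient tumours and 3.47 to 4.36 in controls and was left out by the filter.

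**Figure D2:**
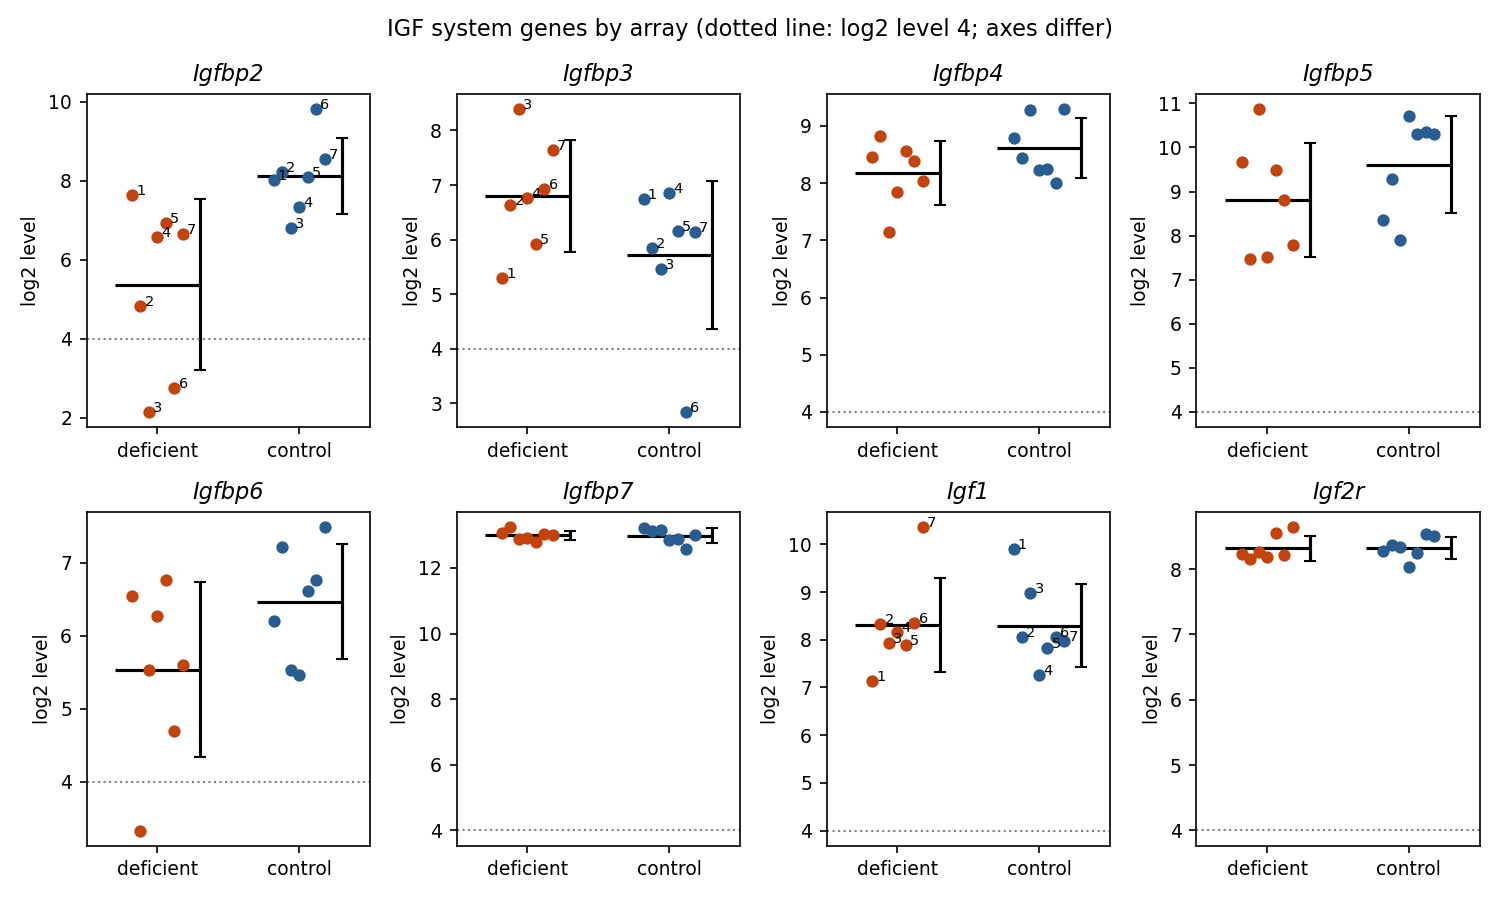
Log2 level of the probeset with the highest mean of each of the 8 tested genes, by array, with deficient arrays at left and control arrays at right; horizontal bars are means, error bars are SD over 7 arrays, the dotted line is a level of 4, and numbers mark the replicate in 3 panels. Axes differ between panels. Igfbp2 lies under 4 in deficient 3 and 6, Igfbp3 in control 6 and Igfbp6 in deficient 2.

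Among the binding proteins Igfbp2 had the widest difference of the 15 probesets. Its product binds both ligands and also has a motif for integrins. Its level was 2.15 at the lowest, 6.57 at the median and 7.64 at the highest in deficient tumours, against 6.82, 8.09 and 9.83 in controls. Of the 7 deficient arrays 7 lay below the control mean and 5 below the lowest control. Deficient 1 at 7.64 and deficient 5 at 6.94 lay within the control range. Means were 5.37 ± 2.16 in deficient tumours and 8.12 ± 0.95 in controls (SD, n = 7 each), a difference of -2.76 (SE 0.81, 95% interval -4.50 to -1.01, limma adjusted p = 0.16).

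Deficient 3 at 2.15 and deficient 6 at 2.77 were under 4, so the size of the difference depends on the floor of the background correction. With all values under 4 set to 4, an alternative chosen after seeing the data, the difference was -2.31 (SE 0.61). Without both arrays it was -1.59 (SE 0.52, limma adjusted p = 0.216). Averaged by leading number, Igfbp2 read 2.46, 4.84, 6.62 and 7.29 in the 4 deficient numbers, against 7.67 and 8.30 in the 2 control numbers. The order thus held between numbers, while the arrays that share a number lay close together in deficient tumours. In a fit that took the leading number for a random block, the difference was -2.70 (SE 0.96, limma adjusted p = 0.989). With arrays weighted by limma according to their spread, Igfbp2 passed (-2.89, SE 0.60, limma adjusted p = 0.00992), in a fit that called 7.15% of all tested probesets lower in deficient tumours.

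Igfbp2 moved between arrays with marker genes of several cell types. In bulk tissue fewer cells of a type and less RNA per cell cannot be told apart. The permutations used below treat the arrays of a group as exchangeable and do not allow for shared leading numbers. Where arrays of a number share a source, the permutation p-values may be too small. After the mean of each group was subtracted, the Igfbp2 level followed the mean level of 10 endothelial markers over the 14 arrays (r = 0.96, rho = 0.98, permutation p = 1.0e-05 for each, the smallest that 100000 permutations within groups can give, adjusted p = 8.0e-04 over 80 relations of 8 genes with 10 lists). This r was 0.98 among deficient arrays, 0.92 among controls and 0.91 without the 2 arrays farthest from the median. It followed 7 alveolar type I markers with r = 0.90 (permutation p = 5.9e-04, adjusted p = 0.0148) and rho = 0.75 (p = 0.00414, adjusted p = 0.0464). That r was 0.73 without the 2 farthest arrays. It followed 9 fibroblast markers with r = 0.87 (permutation p = 7.4e-04, adjusted p = 0.0148) and rho = 0.81 (p = 0.00303, adjusted p = 0.0404), and this r was 0.72 without the 2 farthest arrays. Correlations past the threshold were also found with alveolar type II markers (r = 0.79, rho = 0.76, adjusted permutation p = 0.0248 and 0.0464) and ciliated cell markers (r = 0.80, rho = 0.88, adjusted permutation p = 0.0234 and 0.002). The mesothelial gene Gpm6a passed as well (r = 0.89, rho = 0.92, adjusted permutation p = 0.0148 and 0.00213). In rho, the ciliated markers and Gpm6a stood above the alveolar type I and fibroblast markers. Among controls alone r was 0.36 with fibroblast markers and 0.40 with alveolar type II markers, against 0.96 and 0.85 among deficient arrays. With alveolar type I markers, ciliated markers and Gpm6a it was 0.79, 0.95 and 0.87 among controls. Over the 14 arrays Igfbp2 thus followed 6 of the 10 lists, and deficient 3 had the lowest or next lowest level in each of the 6.

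The marker lists gave these levels in the 2 groups. All 10 endothelial markers had a fitted difference below 0 and 0 of them passed the threshold. Their mean level was 5.13 to 8.45 in deficient tumours and 7.03 to 8.19 in controls. The vascular receptor gene Tek read 9.18 ± 1.75 in deficient tumours and 9.76 ± 0.52 in controls (SD, n = 7 each). Of 7 alveolar type I markers 5 were below 0, and the list's mean level was 9.99 to 11.39 in deficient tumours and 10.94 to 11.45 in controls. The type I marker with the smallest unadjusted p, Rtkn2, read 5.91 ± 1.76 in deficient tumours and 7.41 ± 0.60 in controls, and the brightest, Cldn18, read 12.56 ± 0.29 in deficient tumours and 12.49 ± 0.09 in controls (SD, n = 7 each). Of 9 tested fibroblast markers 8 were below 0, and their mean level was 6.95 to 9.50 in deficient tumours and 8.83 to 10.02 in controls. Deficient 3 had the lowest and deficient 6 the next lowest mean level in these 3 lists. The alveolar type II list did not lie lower: of 8 tested markers 6 were above 0, with a median difference of 0.03. Its mean level was 12.12 to 12.79 in deficient tumours and 12.44 to 12.65 in controls. The widest median differences were those of the airway lists. The 4 ciliated cell markers had a median difference of -2.51, and their mean level was 3.47 to 7.57 in deficient tumours and 5.84 to 9.86 in controls. The 6 club and secretory cell markers had a median difference of -2.37, and their mean level was 9.14 to 10.12 in deficient tumours and 9.85 to 12.80 in controls. At an unadjusted p under 0.05 there were 4 of the 4 ciliated and 4 of the 6 club and secretory markers, all lower in deficient tumours. Over all tested probesets 6.57% were called lower at that threshold. The lists were chosen with earlier results known, so nothing is read from these shares, and 0 passed the adjusted threshold. Igfbp2 followed the ciliated markers, as given above, while its relation to the club and secretory markers did not pass (r = 0.13, rho = 0.27, permutation p = 0.548 and 0.332, adjusted p = 0.755 and 0.588). Other lists lay lower too: of 8 macrophage markers 7 were below 0 (median difference -0.48), and of 5 tested smooth muscle and pericyte markers 5 (median -0.17). Of 5 tested neutrophil markers 2 were below 0 and 3 above (median 0.24). The part of any of these cell types in the Igfbp2 difference was not tested.

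**Figure D3:**
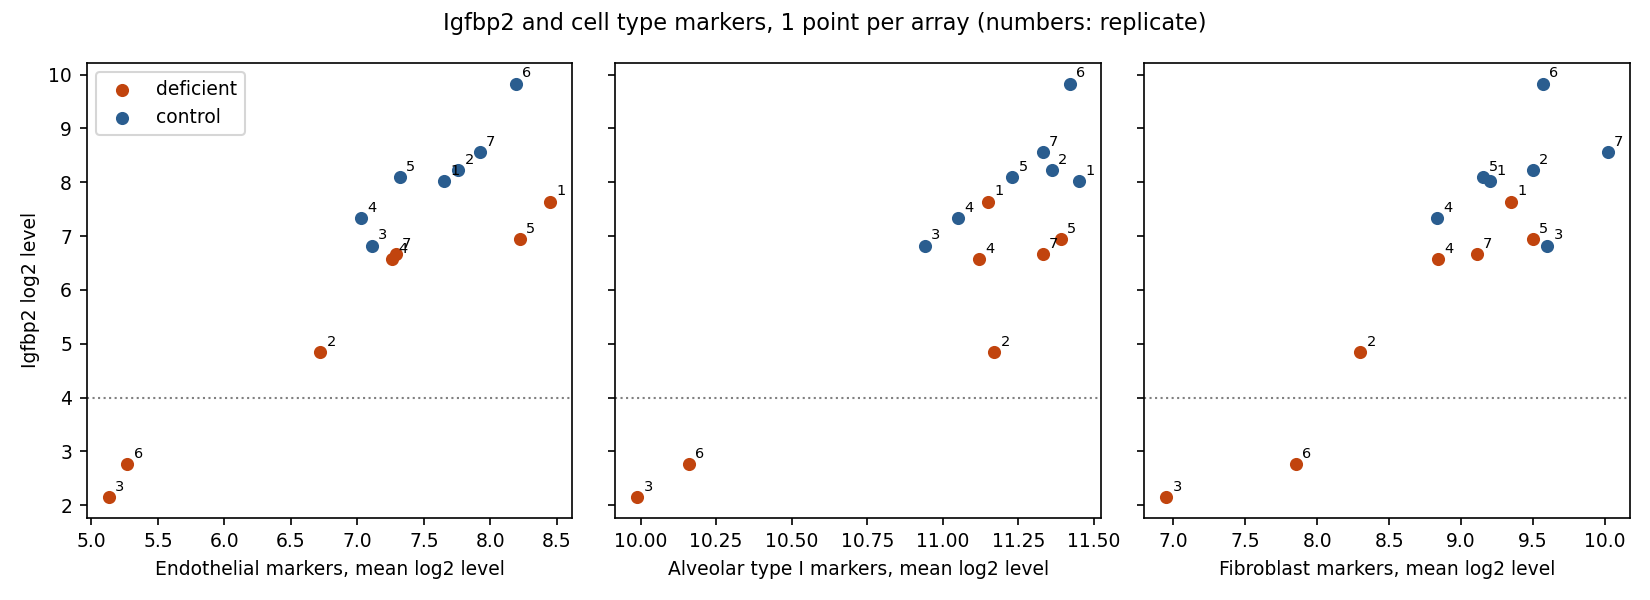
Log2 level of Igfbp2 (vertical axis) against the mean log2 level of endothelial, alveolar type I and fibroblast markers (horizontal axes), with 1 point per array and the replicate number beside it. Deficient 3 and 6 lie at the low end in all 3 panels.

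The 5 genes whose deviations were most like those of Igfbp2 over the 14 arrays were Lipg (r = 0.98), which encodes endothelial lipase, Gpx8, the endothelial membrane protein gene Tmem100, the water channel gene Aqp1 and the alveolar type I gene Hopx (each r = 0.96). They were picked from all tested genes for their likeness, so these values are a description. Their own differences between the groups were -0.74 (SE 0.83) for Lipg, -1.34 (SE 0.59) for Gpx8, -1.86 (SE 1.10) for Tmem100, -0.79 (SE 0.41) for Aqp1 and -0.70 (SE 0.35) for Hopx. Igfbp2 had the widest difference of the 6 genes, but it was chosen with its lower level known and the others were not. The difference between these differences was not tested.

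Igfbp3, which encodes the main carrier of IGF in blood, ran the other way. Its level was 5.30 at the lowest, 6.76 at the median and 8.40 at the highest in deficient tumours, against 2.84, 6.14 and 6.85 in controls. Deficient 3, 6 and 7 lay above every control, and control 6, the only array under 4, lay far below the other controls. The difference was 1.08 (SE 0.59, 95% interval -0.18 to 2.34), smaller than the spread between arrays, and it was 0.60 without control 6. Across arrays Igfbp3 deviated against the 4 ciliated cell markers (r = -0.72, permutation p = 0.00354, adjusted p = 0.0354), but the rank correlation of -0.55 did not pass (permutation p = 0.0512, adjusted p = 0.205). Without the 2 farthest arrays r was -0.45, so the relation rests on those arrays. Control 6 had the highest mean level of the ciliated markers. The Igfbp3 gene lies next to Igfbp1, the binding protein gene known for its regulation by insulin, which stayed at background on all arrays.

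Igfbp4, whose product holds IGF from its receptor until it is cleaved, had 6 probesets, of which 3 were tested. The brightest read 7.14 at the lowest, 8.38 at the median and 8.82 at the highest in deficient tumours, against 8.0, 8.43 and 9.30 in controls. The second read 6.51, 7.48 and 7.91 in deficient tumours, against 7.66, 7.87 and 9.08 in controls, with 5 of 7 deficient arrays below the lowest control. The 3 tested probesets lay lower in deficient tumours, by different amounts. The differences were -0.43 (SE 0.27), -0.86 (SE 0.28) and -0.75 (SE 0.30), and the limma adjusted p of the second was 0.201. Without deficient 3 the first was -0.26. The dimmer of these carry suffixes that Affymetrix gives to probesets with probes shared between transcripts, and they followed each other closely over arrays (r = 0.92). Controls 3 and 7 were the highest arrays of all 3.

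Igfbp5, whose product binds IGF and the extracellular matrix, lies beside Igfbp2 on chromosome 1, but their relation did not pass the threshold. The brighter of its 2 probesets read 7.48 at the lowest, 8.81 at the median and 10.88 at the highest in deficient tumours, against 7.91, 10.31 and 10.71 in controls. The range was 3.4 log2 units in deficient tumours and 2.8 in controls: deficient 3 was the highest of all 14 and deficient 2, 4 and 7 the lowest. The difference was -0.80 (SE 0.59, 95% interval -2.05 to 0.45), and -1.55 (SE 0.84) in the dimmer probeset, which lay under 4 in 4 deficient and 2 control arrays. The probesets followed each other with r = 0.90. Between neighbours Igfbp2 and Igfbp5 the deviations had r = -0.12 (permutation p = 0.717) and rho = 0.09 (p = 0.758). That r was -0.35 among deficient arrays, 0.47 among controls and 0.37 without the 2 farthest arrays.

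Igfbp6, whose product prefers IGF2 over IGF1, read 3.33 at the lowest, 5.60 at the median and 6.77 at the highest in deficient tumours, against 5.46, 6.61 and 7.49 in controls. Deficient 2 and 6 lay below every control and the other 5 within the control range. The difference was -0.93 (SE 0.50, 95% interval -2.0 to 0.13), and it was -0.57 without deficient 2. That array, at 3.33, was the only one under 4. With all values under 4 set to 4, the alternative chosen after seeing the data, the difference was -0.84 (SE 0.44). Over arrays Igfbp6 followed Gpm6a, the only mesothelial marker tested, with r = 0.79 (permutation p = 0.0022, adjusted p = 0.0251) and rho = 0.80 (p = 0.00161, adjusted p = 0.0322). Without the 2 farthest arrays r was 0.77. Gpm6a read 4.84 to 8.70 in deficient tumours and 6.47 to 8.56 in controls, and the mesothelial gene Wt1 was under 4 on all arrays, so this list rests on 1 gene. In rank Igfbp6 also followed the ciliated markers (rho = 0.78, adjusted permutation p = 0.0386) and the endothelial markers (rho = 0.73, adjusted permutation p = 0.0487), but the linear correlations did not pass (r = 0.65 and 0.58, adjusted permutation p = 0.12 and 0.28). The part of these cell types in the Igfbp6 difference was not tested.

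Igfbp7, a secreted protein gene of vessels and stroma whose product binds IGF weakly, had 3 tested probesets and differed little. The brightest read 12.78 at the lowest, 13.01 at the median and 13.24 at the highest in deficient tumours, against 12.56, 13.01 and 13.22 in controls. Its difference was 0.02 (SE 0.11, 95% interval -0.23 to 0.26), and those of the others were -0.09 (SE 0.20) and 0.18 (SE 0.25). It did not follow the endothelial markers past the threshold (r = -0.13, rho = -0.15, permutation p = 0.611 and 0.618, adjusted p = 0.789 and 0.854).

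**Figure D4:**
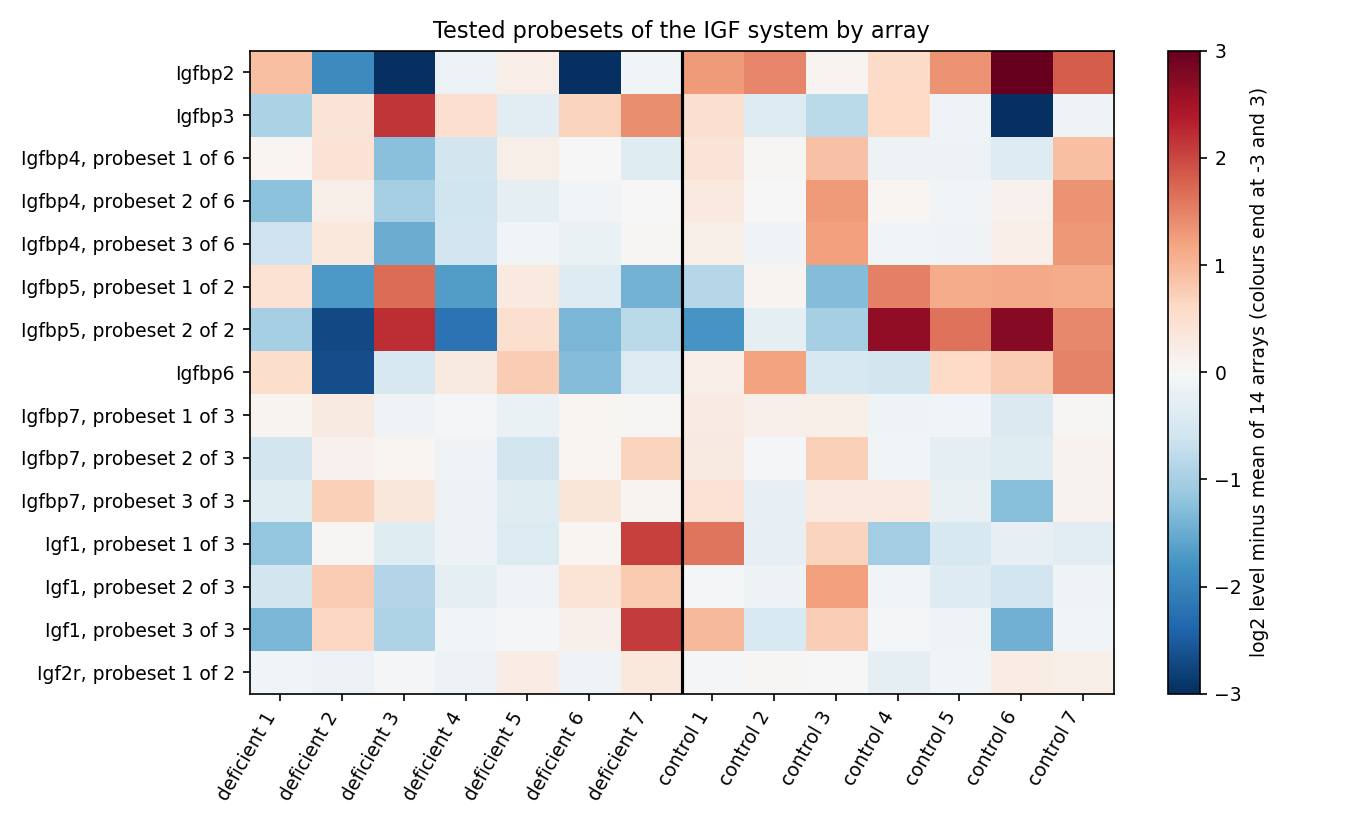
Log2 level of each tested probeset minus its mean over the 14 arrays (colour, red high and blue low, ending at -3 and 3), with deficient arrays left of the line and control arrays right of it. Igfbp2 is low in deficient 2, 3 and 6, and the Igfbp5 and Igf1 rows hold high and low arrays in both groups.

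The 8 tested genes, each read by its brightest probeset, were not shown to vary as 1 block across arrays. Of their 28 pairs, compared by deviations from group means, 0 passed an adjusted permutation p under 0.05 in r or in rho. The lowest adjusted p was that of Igf1 and Igfbp5, which ran against each other (rho = -0.79, permutation p = 0.00188, adjusted p = 0.0526, and r = -0.67, permutation p = 0.0118, adjusted p = 0.18). That r was -0.52 among deficient arrays, -0.86 among controls and -0.71 without the 2 arrays farthest from the Igfbp5 median. Igfbp2 and Igfbp6 ran together in rank (rho = 0.75, adjusted p = 0.0669), with r = 0.57 (adjusted p = 0.351). These values depend on the probeset. Over all tested probesets of a pair, r ran from 0.30 to 0.79 for Igfbp7 and Igf1. It ran from 0.42 to 0.78 for Igfbp3 and Igfbp7, and from 0.16 to 0.78 for Igfbp4 and Igf1. Relations of the dimmer probesets were not tested.

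The genes most alike differed from member to member. For Igf1 they were Ctps, an enzyme gene of cytidine nucleotide synthesis, Zmat3, Cdk5rap3, M6pr, the gene of the smaller mannose 6-phosphate receptor, and Cmtm6 (r = 0.89 to 0.84). For Igf2r they were the lysosomal cobalamin exporter gene Lmbrd1, Mfsd14b, Rer1, Rpgrip1 and Nfe2l1 (r = 0.91 to 0.86). Those of Igfbp3 were Mphosph10, G6pc3, Mcat, Mvb12a and Nubp1 (r = 0.90 to 0.87). Those of Igfbp4 were the mesenchymal transcription factor gene Prrx1, Pcdhb9, Cyp7b1, Stard8 and Jam2 (r = 0.81 to 0.78). Those of Igfbp5 were Cmbl, Tmem63a, Lgals4, Lratd1 and Xylb (r = 0.88 to 0.79). Those of Igfbp6 were the prostacyclin synthase gene Ptgis, Perp, Vldlr, Tpst2 and Pqlc3 (r = 0.87 to 0.81). Those of Igfbp7 were Tpra1, the surfactant gene Sftpb, Dgat1, Ly86 and Coprs (r = 0.88 to 0.84). All are values over 14 arrays, picked for likeness and without a test.

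Other genes of the pathway gave no call either. Of 51 listed genes 45 were on the array and 30 tested, and 0 passed (limma, beside 0.0394% of all tested probesets). At an unadjusted p under 0.05 there were 2 of the 30, both lower in deficient tumours, a share close to the 6.57% of all tested probesets called lower at that threshold. Fitted differences were below 0 in 18 and above in 12, with a median of -0.07. Among 11 tested genes of the insulin receptor, its adaptors and their regulators, the phosphatase gene Ptpn1, which encodes a brake on insulin receptor signalling, read 6.25 in deficient tumours and 6.71 in controls on average (-0.46, SE 0.18, limma adjusted p = 0.26). Irs2, the gene of an adaptor docked to both receptors, was near the filter level of 4, at 3.68 in deficient tumours and 4.26 in controls (-0.58, SE 0.26, limma adjusted p = 0.325). It falls outside the naming rule and was named after its value was seen. The adaptor gene Shc1 differed by 0.41 (SE 0.30) and Socs2, a feedback inhibitor of growth hormone signalling, by -0.03 (SE 0.13).

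Among 5 tested proteases that cleave binding proteins, and their inhibitors, Adam28 differed by -0.86 (SE 0.76), Adamts1 by 0.40 (SE 0.39) and the cathepsin gene Ctsd by -0.03 (SE 0.20). Pappa, the gene of the IGFBP4-cleaving pappalysin, was under 4 on all arrays. Of 8 tested genes of other proteins with an IGFBP domain 4 were below 0 and 4 above. They were led by Ccn5 (-1.36, SE 0.70) on the lower side and by Esm1 (0.86, SE 0.43), a gene of activated endothelium, on the higher side, while Ccn2 differed by -0.16 (SE 0.22). Among 4 tested imprinted growth genes Cdkn1c differed by -0.36 (SE 0.48), Mest by 0.16 (SE 0.21) and Plagl1 by 0.14 (SE 0.19). The fetal RNA-binding protein genes Igf2bp1 and Igf2bp3 and the blood carrier subunit gene Igfals stayed under 4 on all arrays. Both tested genes of the mannose 6-phosphate pathway were above 0, M6pr by 0.11 (SE 0.12) and the tagging enzyme gene Gnptab by 0.30 (SE 0.17).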

How the data were processed

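Total RNA from tumours was isolated by Trizol, labelled as biotinylated cRNA and hybridised on Affymetrix mouse arrays, 1 array per mouse, per the labels' protocols and design text. The deposited values are log2 probeset levels that the authors made with GCRMA, per the submitters' processing notes; its version and a genome build are not given in the sources used here. This method estimates each probe's background from its sequence. Of all values 43.9% lay under 4, the level chosen here for the filter. The lowest value was 2.12, and genes such as Igfbp1 stayed close to it on all arrays. For arrays their number limits the precision.

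Probesets were named from the platform annotation, where 20380 had 1 gene, 691 several and 1555 none. The comparison between groups used limma 3.58.1 under R 4.3.3 (lmFit and eBayes, two-sided, 1 group term, Benjamini-Hochberg over 12701 probesets above 4 in at least 7 arrays, threshold 0.05). The fit was tested on simulated data. Differences are deficient minus control with the fit's standard error (SE). A gene is represented by its probeset with the highest mean, and different probes' levels were not set against each other. Relations across arrays used deviations from group means and 100000 permutations within groups, which treat the arrays of a group as exchangeable whatever their leading number. Named genes are all members, per pathway list the smallest unadjusted p in each direction and the highest mean, and per member the 5 most alike genes, with marker genes named from their lists. Outside this rule, Irs2, Nedd4 and the genes given only as under 4 on all arrays (Insr, Pappa, Igfals, Igfbp1, Igf2bp1 and Igf2bp3) were named after their values were seen. Members, lists and marker genes were chosen with earlier results of these data known. Alternatives changed the filter, normalization, variance model, array weights, blocks, floor and arrays used.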

Additional observations from a re-analysis of the deposited data

Results flagged for a closer look

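In 30 groups of 7 arrays, 15 probesets in each of 2 groups, 4 held an array far from the others by Dixon's test, where chance flags about 1 group in 20. Control 6 had the lowest Igfbp3 level of its group, 2.84 where the next control read 5.46. It also had the lowest level of the third Igfbp7 probeset, 6.40 beside 7.42 for the next. Deficient 7 had the highest level of the brightest Igf1 probeset, 10.36 beside 8.35 for the next. Control 3 had the highest level of the second Igf1 probeset, 7.11 beside 5.83 for the next. The 2 Igf1 flags lie in different groups. Deficient 7 was also the highest deficient array of the second Igf1 probeset, at 6.67.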

How the results depend on the processing

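The number of probesets called over the whole table was 5, and it moved with most choices: 0 without the filter, 9 with a trended robust variance, 2 with the replicate number as a block, 0 with a random block for the leading number, 32 without deficient 3 and 6 together and 0 to 85 with 1 array left out. Left out singly, control 4 gave 85, deficient 6 gave 30, deficient 7 gave 13 and deficient 1 gave 11, while deficient 2 and 4 gave 0 each and controls 2, 5, 6 and 7 gave 1 each. With array weights it was 1900, 992 higher and 908 lower. The replicate numbers do not pair the arrays: same-numbered arrays had deviations correlated at -0.226 to 0.223, and 0 of 7 deficient arrays were most like the control of their number. The block left 0 members called.

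No tested member was called in the other alternatives, but with array weights 2 of the 15 passed, both lower, Igfbp2 (-2.89, SE 0.60, limma adjusted p = 0.00992) and Igfbp6 (-1.58, SE 0.49, limma adjusted p = 0.0433), beside 7.15% of all tested probesets called lower. Array weights also called 3 of the 30 tested pathway genes, Ptpn1 lower and Shc1 and Nedd4 higher, Nedd4 being named after its value was seen. That fit called 1900 of all 12701 tested probesets, 992 higher and 908 lower, so nothing is read from the 3 calls. At an unadjusted p under 0.05 in the main limma fit, 3 member probesets were counted, all of Igfbp2 or Igfbp4. The members' median difference was -0.33 to -0.001 with 1 array left out, with -0.33 without deficient 7, while no member and no pathway gene was called in any of those 14 fits. Over those fits the difference was -3.13 to -2.22 for Igfbp2 (limma adjusted p 0.103 to 0.337), 0.60 to 1.33 for Igfbp3, -0.54 to -0.26 for Igfbp4, -1.15 to -0.58 for Igfbp5 and -1.14 to -0.57 for Igfbp6. Of 200 differences of the 8 genes under all alternatives 23 changed sign, all of Igfbp7, Igf1 or Igf2r, whose differences lie near 0. Why the calls moved with these choices was not tested. Igf2, Igf1r and the dimmer probesets lay near background, which limits what can be said of them.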
